A study of Amphiprion ocellaris with 30 samples.

Results

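Complex I, or NADH dehydrogenase, is the first enzyme of the mitochondrial respiratory chain: it takes electrons from NADH, passes them to ubiquinone and pumps protons across the inner mitochondrial membrane. Most of its subunits are encoded in the nucleus, and the ND subunits, which lie in the membrane arm, are encoded in the mitochondrial genome. In vertebrates mitochondrial genes are transcribed as long precursors. These are then cut, largely at the tRNAs between the genes, and most of the mRNAs are polyadenylated. ND6 is read from the opposite strand to the other ND genes. In mammals ND4L and ND4 stay together on 1 mature transcript.

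The values described here are those of 7 Ensembl gene IDs of the clownfish Amphiprion ocellaris, out of 22816 in the table: ENSAOCG00000000007, ENSAOCG00000000011, ENSAOCG00000000026, ENSAOCG00000000028, ENSAOCG00000000029, ENSAOCG00000000033 and ENSAOCG00000000034. They were listed because the first IDs of the annotation are thought to follow the order of the mitochondrial genome, which would make them, in that sequence, ND1, ND2, ND3, ND4L, ND4, ND5 and ND6. Neither the table nor the RefSeq gene table used here (assembly ASM2253959v1, 28286 genes, 0 with an Ensembl ID) pairs an ID with a gene, so these identities are not established and each gene is called by its ID below. RefSeq lists 37 features in the clownfish mitochondrial genome, 13 of them protein-coding. With the ID number taken as place plus 1, all 13 table IDs that fall within those 37 places stand at a protein-coding place, 0 stand at another place, and 7 of the 7 listed IDs stand at an ND place. This is a match of order only. The other 6 of these 13 IDs, which the same order would place at the cytochrome oxidase, ATP synthase and cytochrome b genes, are given as neighbouring IDs for comparison.

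RNA was measured in 30 libraries of entire wild-type larvae, 10 per treatment, at 5 days post treatment in sea water at 27°C. The treatments were DMSO, the solvent control, at 0.0001%, SR9243 at 1e-07 M and T3 at 1e-07 M. SR9243 is an antagonist of the liver X receptor (LXR), a nuclear receptor of sterol metabolism, and T3 is the thyroid hormone triiodothyronine, which acts through nuclear receptors and drives metamorphosis in fish. The labels do not say whether SR9243 and T3 larvae also received DMSO, whether a library is 1 larva, or which larvae shared a beaker, so p-values measure the spread between libraries, which may be partly technical. The titles of the T3 libraries carry a further tag, IOP, that the labels do not explain.

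Values are the variance-stabilised normalised counts deposited by the authors, on a scale close to log2 at the high levels of these IDs, so a difference of 1 is close to a doubling. They are not divided by gene length, and levels are therefore not compared between IDs. The count of reads per library is unknown. Library medians over all 22816 IDs ran from 6.803 to 6.842 in DMSO, from 6.837 to 6.876 in SR9243 and from 6.874 to 6.9 in T3 larvae. Each T3 library was thus above each DMSO library. Between 558 and 730 genes per library stood at the lowest value of the table. Groups were compared with limma over the 22615 genes that stood above the lowest value in at least 10 libraries, with Benjamini-Hochberg adjustment over all of them and a threshold of 0.05; all 7 listed IDs passed that filter. The 3 comparisons share groups and are not independent of each other. Each listed ID was far above the lowest value of the table in each library, between 10.89 and 15.14.

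Between T3 and DMSO larvae the differences of most listed IDs were smaller than the median size over all tested genes, and ENSAOCG00000000026 was the exception. It was lower in T3 than in DMSO larvae, by -0.56 on the log2 scale, and lower in T3 than in SR9243 larvae. On the deposited scale ENSAOCG00000000029, ENSAOCG00000000033 and ENSAOCG00000000034 were higher in SR9243 than in T3 larvae, calls that were lost under quantile normalisation. No listed ID passed the test between SR9243 and DMSO. Measured against the other listed IDs of the same library, ENSAOCG00000000011 moved up and ENSAOCG00000000026 moved down under T3.

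**Figure D1:**
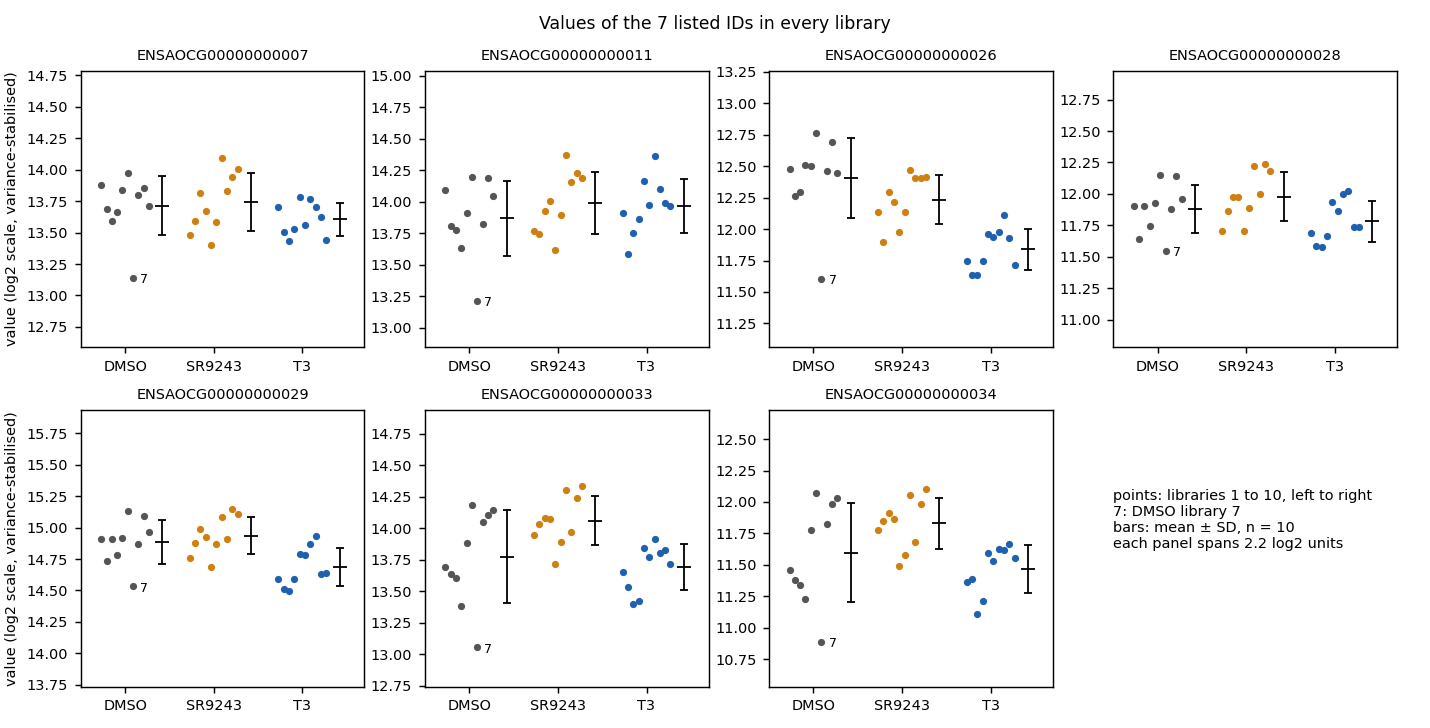
Each point is 1 library; the vertical axis is the variance-stabilised value on a log2 scale and the panels are the 7 listed IDs, with bars for the mean ± SD of 10 libraries. The point of DMSO library 7 lies lowest among the DMSO libraries in each panel, and for ENSAOCG00000000026 the other 9 DMSO libraries lie above all T3 libraries.

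The ID at the place of ND3, a small membrane subunit, is ENSAOCG00000000026. In DMSO larvae its lowest, median and highest values were 11.61, 12.47 and 12.76. In SR9243 larvae they were 11.89, 12.26 and 12.47, and in T3 larvae 11.64, 11.84 and 12.11. DMSO and T3 overlapped through a single library: DMSO library 7 held the value 11.61, and the next lowest DMSO value, 12.27, was above the highest T3 value. The group means were 12.4 ± 0.318, 12.23 ± 0.197 and 11.84 ± 0.163 (SD, n = 10 libraries each). The T3 mean was below the DMSO mean by a difference of -0.56 ± 0.10 (SE; 95% interval -0.77 to -0.35; limma adjusted p = 3.57e-05), a change of -32.3% if the scale is read as log2. Without DMSO library 7 the difference was -0.65 (limma adjusted p = 5.15e-08). Leaving out the lowest DMSO library could only move the difference downwards, so this value adds no support. With all libraries the size of the difference exceeded that of 78.8% of all tested genes. With libraries 6 to 10 of each group alone, 5 against 5, the difference was -0.46 and the limma adjusted p 0.0539. Those libraries include DMSO library 7, and a fit of that set without it was not run. With libraries 1 to 5 alone the difference was -0.67 (limma adjusted p = 2.02e-05).

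SR9243 larvae lay between the other groups for ENSAOCG00000000026. Their mean was above that of T3 larvae by 0.39 ± 0.10 (SE; limma adjusted p = 0.0038), and 8 of 10 SR9243 libraries were above the highest T3 library. Against DMSO the difference was -0.17 (95% interval -0.38 to 0.04; limma adjusted p = 0.233) and did not pass the test. That outcome depended on DMSO library 7: without it the difference was -0.26 and the limma adjusted p 0.0142. As library 7 held the lowest DMSO value of this ID, leaving it out could only move the difference downwards. The call without it therefore adds no support for a difference.

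ENSAOCG00000000028 and ENSAOCG00000000029 stand at the adjoining places of ND4L and ND4, both membrane subunits of complex I. ENSAOCG00000000029 had a lowest, median and highest value of 14.53, 14.91 and 15.14 in DMSO, 14.69, 14.92 and 15.14 in SR9243, and 14.5, 14.63 and 14.93 in T3 larvae. All 3 groups overlapped, with the T3 libraries shifted downwards. The T3 mean differed from the DMSO mean by -0.20 ± 0.08 (SE; limma adjusted p = 0.0337) and the SR9243 mean exceeded the T3 mean by 0.25 ± 0.08 (SE; limma adjusted p = 0.0142). The difference between T3 and DMSO was fragile: its limma adjusted p rose to between 0.0515 and 0.0711 when DMSO library 6, 9 or 10 or T3 library 1, 2, 3 or 4 was left out, and under quantile normalisation the ID was higher in T3 instead, by 0.21 (limma adjusted p = 0.0226). The excess over T3 in SR9243 larvae also turned under quantile normalisation, to -0.18 (limma adjusted p = 0.074).

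ENSAOCG00000000028 had a lowest, median and highest value of 11.55, 11.9 and 12.15 in DMSO, 11.71, 11.98 and 12.24 in SR9243, and 11.58, 11.74 and 12.02 in T3 larvae. The groups overlapped and no comparison passed the test: the differences were -0.10 between T3 and DMSO (limma adjusted p = 0.345), 0.10 between SR9243 and DMSO (0.41) and 0.20 between SR9243 and T3 (0.0688). The last was called, with limma adjusted p from 0.0388 to 0.047, when DMSO library 7, SR9243 library 1 or 5, or T3 library 7 or 8 was left out. It also depended on scaling. With library medians set equal it was 0.22 and called (limma adjusted p = 0.038), and under quantile normalisation 0.10 and not called (0.388). With the medians of the top tercile of mean level set equal it was 0.26 and called (0.0162). Of 15 settings other than single libraries left out, 10 left the result as it was.

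ENSAOCG00000000033 and ENSAOCG00000000034 stand at the adjoining places of ND5, a large proton-pumping subunit, and ND6. ENSAOCG00000000033 ran from 13.06 through a median of 13.79 to 14.19 in DMSO, from 13.71 through 14.05 to 14.34 in SR9243, and from 13.39 through 13.75 to 13.91 in T3 larvae. ENSAOCG00000000034 ran from 10.89 through 11.62 to 12.07 in DMSO, from 11.49 through 11.86 to 12.11 in SR9243, and from 11.11 through 11.54 to 11.67 in T3 larvae. Both IDs had their highest group median in SR9243 larvae and a wide DMSO group that overlapped the others. For each of them 8 of the 10 SR9243 libraries were above the highest T3 library. SR9243 exceeded T3 by 0.37 ± 0.12 for ENSAOCG00000000033 (SE; limma adjusted p = 0.0136) and by 0.36 ± 0.12 for ENSAOCG00000000034 (SE; limma adjusted p = 0.0187). Under quantile normalisation these differences were 0.08 and 0.28 and did not pass the test (limma adjusted p = 0.666 and 0.0786).

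The excess of SR9243 over DMSO did not pass for either ID. It was 0.28 ± 0.12 for ENSAOCG00000000033 (SE; 95% interval 0.05 to 0.52; limma p = 0.0202 and adjusted p = 0.0643) and 0.23 for ENSAOCG00000000034 (95% interval -0.01 to 0.48; limma adjusted p = 0.151). For ENSAOCG00000000033 the limma adjusted p fell to between 0.0336 and 0.0457 when DMSO library 6, 8, 9 or 10 or SR9243 library 5 was left out. T3 and DMSO differed by -0.09 and -0.13 (limma adjusted p = 0.565 and 0.376). Without DMSO library 7 these differences were -0.17 and -0.21 and still not called. Without DMSO libraries 4 and 7 ENSAOCG00000000034 was called lower in T3, at -0.27 (limma adjusted p = 0.0324). ENSAOCG00000000033 was then at -0.22 (limma adjusted p = 0.051). Libraries 4 and 7 held the lowest DMSO values of both IDs, 11.23 and 10.89 for ENSAOCG00000000034 and 13.38 and 13.06 for ENSAOCG00000000033. Leaving them out could therefore only move T3 minus DMSO downwards, and this call adds no support for a difference. Strand matters for ENSAOCG00000000034 if it is ND6: the libraries were stranded, but whether the counting used strand is not given in the sources used here, and reads of opposite strands cannot then be told apart.

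ENSAOCG00000000007 and ENSAOCG00000000011, at the places of the membrane subunits ND1 and ND2, passed no test of their level. ENSAOCG00000000007 had a lowest, median and highest value of 13.14, 13.75 and 13.98 in DMSO, 13.4, 13.74 and 14.09 in SR9243, and 13.44, 13.59 and 13.78 in T3 larvae. ENSAOCG00000000011 had 13.21, 13.86 and 14.2 in DMSO, 13.61, 13.97 and 14.38 in SR9243, and 13.59, 13.97 and 14.36 in T3 larvae. The groups overlapped widely for both. T3 minus DMSO was -0.11 (95% interval -0.30 to 0.08; limma adjusted p = 0.342) for ENSAOCG00000000007 and 0.10 (-0.13 to 0.33; 0.486) for ENSAOCG00000000011, the one positive difference among the 7. SR9243 minus DMSO was 0.03 and 0.12 (limma adjusted p = 0.857 and 0.45), and SR9243 minus T3 was 0.14 and 0.02 (0.266 and 0.898).

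**Figure D2:**
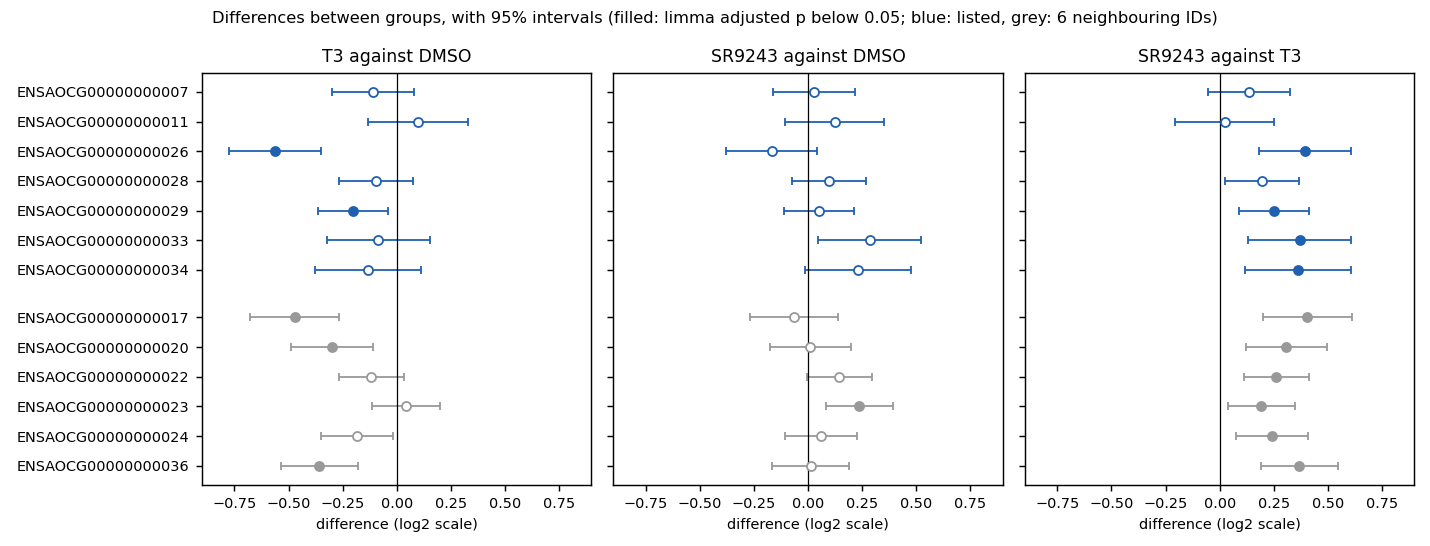
Horizontal axes give the difference between group means on the log2 scale for 3 comparisons, with 95% intervals over 10 libraries per group; filled points have a limma adjusted p below 0.05, blue points are listed IDs and grey points neighbouring IDs. The lowest blue point in the comparison of T3 with DMSO is ENSAOCG00000000026 at -0.56, and all 13 points lie above 0 in the comparison of SR9243 with T3.

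As a set, 2 of 7 listed IDs were called between T3 and DMSO by limma, both lower in T3, where 50.5% of all tested genes were called in either direction and 25.8% were called lower. For 0 of 7 did the groups fail to overlap, against 12% of tested genes. The median difference of the 7 was -0.11, against -0.01 for all tested genes, and the median size of their differences was 0.11 against 0.28. With library medians set equal the same 2 IDs were called, as were 11818 of the 22615 tested genes. The differences of ENSAOCG00000000007 and ENSAOCG00000000033 then went from -0.11 and -0.09 to -0.17 and -0.14, without passing. Without DMSO libraries 4 and 7, 3 of 7 were called, ENSAOCG00000000034 among them, against 51.6% of tested genes. Those libraries held the lowest DMSO values of ENSAOCG00000000034, so leaving them out could only move its difference downwards. The difference of ENSAOCG00000000026 was the only one of the 7 larger in size than that median of all genes. Under quantile normalisation ENSAOCG00000000007, ENSAOCG00000000029 and ENSAOCG00000000033 had positive differences of 0.15, 0.21 and 0.22, and ENSAOCG00000000011 was called higher in T3 by 0.41 (limma adjusted p = 0.00512), while ENSAOCG00000000026 was lower as before (-0.48; limma adjusted p = 0.000113). Of the neighbouring IDs 3 of 6 were called lower in T3: ENSAOCG00000000017 by a difference of -0.47, ENSAOCG00000000020 by -0.30 and ENSAOCG00000000036 by -0.36, with a median of -0.24 over the 6. In bulk larvae, fewer cells rich in mitochondria and less of such RNA per cell cannot be told apart.

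Between SR9243 and DMSO, 0 of 7 were called by limma, against 29% of all tested genes. At an unadjusted p below 0.05 there was 1 of 7, against 39.1% of tested genes, and the rank-sum test called 0 of 7, against 24.1%. The groups of 0 of 7 failed to overlap, against 1.69% of tested genes. Differences were positive for 6 of 7, with a median of 0.10 against -0.01 over all tested genes. Among the neighbouring IDs only ENSAOCG00000000023 was called, higher in SR9243 by 0.24 (limma adjusted p = 0.0195).

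Between SR9243 and T3, 4 of 7 were called by limma, all higher in SR9243, where 34.7% of all tested genes were called in either direction and 17.1% were called higher. No listed ID had groups that failed to overlap, against 6.08% of tested genes. All 7 differences were positive, with a median of 0.25 against 0.00336 over all tested genes. The 6 neighbouring IDs were all called higher in SR9243, with a median difference of 0.29, so this direction was shared by all 13 IDs on the deposited scale. Quantile normalisation moved the median of all tested genes by 0.01 in this comparison and each of the 7 listed IDs by more. ENSAOCG00000000029 went from 0.25 to -0.18 and ENSAOCG00000000034 from 0.36 to 0.28. It left 1 listed call of 7, ENSAOCG00000000026, where 7540 of the 22615 tested genes were called. It gave 3 listed IDs, ENSAOCG00000000007, ENSAOCG00000000011 and ENSAOCG00000000029, negative differences.

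To see which listed ID moved apart from the rest, the mean of the other 6 listed IDs was subtracted from each ID in each library before the same limma test; for genes outside the list the mean of all 7 was subtracted. Between T3 and DMSO 2 of 7 were called, against 39.3% of all tested genes. The listed IDs vary together across libraries, so the subtraction does not act alike on them and on other genes. Shares of all tested genes on this relative scale are therefore not a like measure for the listed IDs. ENSAOCG00000000011 rose by 0.30 ± 0.08 relative to the others (SE; limma adjusted p = 0.00284) and ENSAOCG00000000026 changed by -0.47 ± 0.08 (SE; limma adjusted p = 4.49e-06). Both calls held with each of the 30 libraries left out in turn and with the mean of the 6 neighbouring IDs as the reference, where the differences were 0.33 and -0.33 (limma adjusted p = 0.00878 and 0.00305). ENSAOCG00000000011 thus differed in its change from the other listed IDs although its own level, on the deposited scale, did not pass the test.

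Between SR9243 and DMSO 2 of 7 were called on the relative scale, against 18.9% of all tested genes. ENSAOCG00000000026 changed by -0.30 ± 0.08 relative to the others (SE; limma adjusted p = 0.0044), a call that held with each library left out in turn. The adjusted p was 0.0586 with the neighbouring IDs as reference. ENSAOCG00000000033 rose by 0.22 ± 0.08 (SE; limma adjusted p = 0.0453). That call was lost when 18 of the 30 libraries were left out one at a time, with limma adjusted p from 0.027 to 0.0966. Between SR9243 and T3 1 of 7 was called, against 37.5%: ENSAOCG00000000011 was lower in SR9243 relative to the others, by a difference of -0.26 ± 0.08 (SE; limma adjusted p = 0.00871). ENSAOCG00000000026, at 0.17 in this comparison (limma adjusted p = 0.0773), was also called when DMSO library 7 or SR9243 library 2 was left out (0.0496 and 0.0437).

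The difference between ENSAOCG00000000011 and ENSAOCG00000000026 within a library separated the 3 treatments. It ran from 1.12 through a median of 1.49 to 1.61 in DMSO, from 1.63 through 1.77 to 1.91 in SR9243, and from 1.95 through 2.12 to 2.39 in T3 larvae. No library of one treatment fell within the range of another, DMSO library 7 included, although neither ID alone separated any 2 treatments. This pair was chosen after its values were seen and is given as a description, with no test. It was the only 1 of the 21 pairs of listed IDs, and the only 1 of the 78 pairs among the 13 IDs, in which the treatments lay in separate steps. The same steps, with SR9243 between DMSO and T3, were found for 0.0619% of differences of other genes from ENSAOCG00000000011, for 0.296% of differences from ENSAOCG00000000026 and for 0.27% of single genes. Under quantile normalisation the ranges were 1.13 to 1.62, 1.51 to 1.93 and 2.03 to 2.54, so that T3 remained apart while DMSO and SR9243 overlapped.

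**Figure D3:**
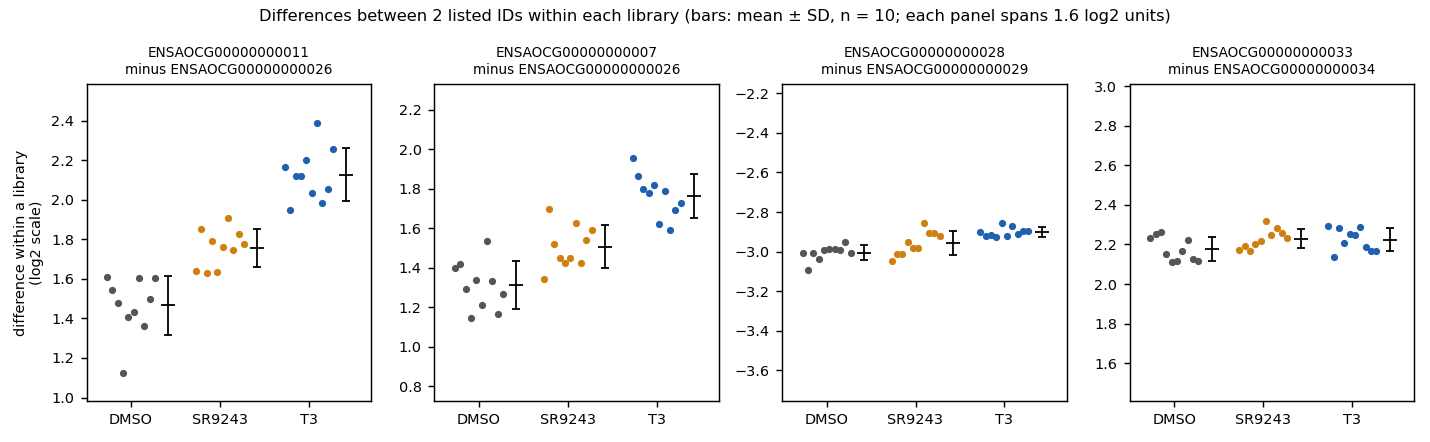
The vertical axis is the difference on the log2 scale between the 2 listed IDs named above each panel, within each library; points are libraries, bars the mean ± SD of 10, and each panel spans the same number of log2 units. ENSAOCG00000000011 minus ENSAOCG00000000026 rises in 3 separate steps, while the adjoining IDs ENSAOCG00000000028 and ENSAOCG00000000029, and ENSAOCG00000000033 and ENSAOCG00000000034, keep a narrow difference.

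T3 and DMSO alone were separate in 3 of the 21 pairs, where 5.25% of differences of all other tested genes from ENSAOCG00000000011 and 14.5% of differences from ENSAOCG00000000026 were separate. For differences from ENSAOCG00000000028 and ENSAOCG00000000029 the shares were 7.54% and 9.95%. Under quantile normalisation T3 and DMSO were separate in 4 of the 21 pairs, SR9243 and DMSO in 0 and SR9243 and T3 in 3, against 3, 1 and 1 on the deposited scale. Shares over all tested genes were not computed under quantile normalisation, nor for the comparisons with SR9243 alone. These counts therefore do not set the listed IDs apart from other genes. On the deposited scale the second pair in which T3 and DMSO were separate was ENSAOCG00000000007 minus ENSAOCG00000000026, from 1.15 to 1.53 in DMSO and from 1.59 to 1.96 in T3 larvae. The third was ENSAOCG00000000028 minus ENSAOCG00000000029, from -3.09 to -2.95 in DMSO and from -2.92 to -2.85 in T3 larvae, a shift that is small in size but set against very little spread between libraries.

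That last pair was the tightest of the 78: the SD of its difference within a treatment averaged 0.0402, and over all 30 libraries the difference stayed between -3.09 and -2.85. ENSAOCG00000000033 minus ENSAOCG00000000034 averaged 0.056 and stayed between 2.11 and 2.32. Both are pairs with consecutive ID numbers. The other listed pairs had averages from 0.107 to 0.183. Among the neighbouring IDs ENSAOCG00000000022 and ENSAOCG00000000023, also consecutive, averaged 0.0539, and ENSAOCG00000000020 and ENSAOCG00000000036, which are not consecutive, averaged 0.0547. The fourth consecutive pair, ENSAOCG00000000023 and ENSAOCG00000000024, averaged 0.166. IDs whose genes overlap or share a transcript can share reads in the authors' counting, and how kallisto divided them was not tested.

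Across the libraries of a treatment the listed IDs rose and fell together. Pearson's r between pairs of listed IDs ran from 0.792 to 0.99 with a median of 0.879 in DMSO, from 0.616 to 0.974 with a median of 0.885 in SR9243, and from 0.573 to 0.992 with a median of 0.789 in T3 larvae (n = 10 libraries each). Median Spearman's rho was 0.867, 0.903 and 0.83. There were 63 relations in the family, with a two-sided permutation test and Benjamini-Hochberg adjustment. By r 21, 20 and 20 of the 21 pairs passed, and by rho 19, 21 and 20. The share of other gene pairs that would pass was not computed, so these counts do not set the listed IDs apart from other genes. The lowest raw p, 1e-05, is the smallest that 100000 permutations can give. The pairs that did not pass by r were ENSAOCG00000000026 with ENSAOCG00000000034 in SR9243 (r = 0.616, permutation adjusted p = 0.0622) and ENSAOCG00000000007 with ENSAOCG00000000034 in T3 (r = 0.573, permutation adjusted p = 0.0854). ENSAOCG00000000028 and ENSAOCG00000000029 had r of 0.985, 0.974 and 0.992 in the 3 groups, and ENSAOCG00000000033 and ENSAOCG00000000034 had 0.99, 0.97 and 0.952.

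In DMSO the median r was lower and fewer pairs passed without the most distant libraries. Leaving these out narrows the range and the number of libraries, which can by itself lower r and the count of passing pairs. Whether the relations are weaker among the other libraries cannot be told from this. Without the 2 libraries farthest from the median of the first ID all 63 r were still positive, with medians of 0.695, 0.823 and 0.829, and 6, 15 and 13 of the 21 pairs passed with 8 libraries. The median r was lower than with all libraries in DMSO and SR9243 and higher in T3. In DMSO, where the fall was largest, library 7 held the lowest value of all 7 IDs. All IDs of a library also share its scaling, and the part of that in r was not tested.

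**Figure D4:**
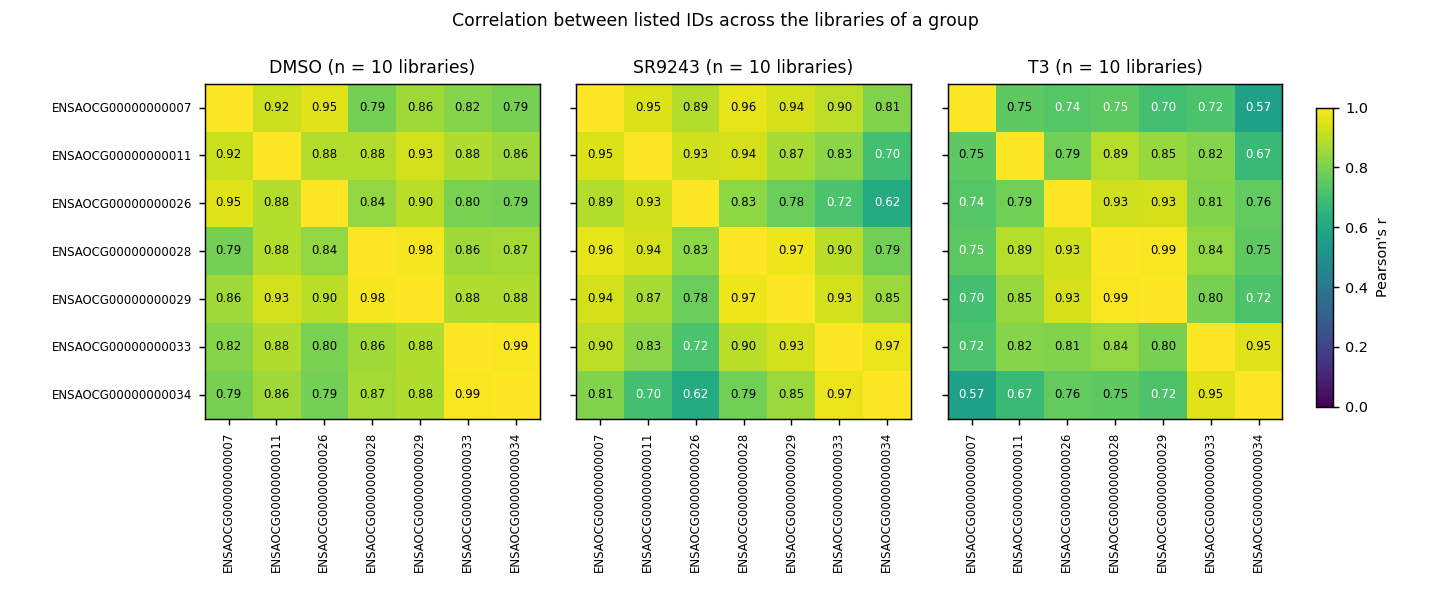
Cells give Pearson's r between 2 listed IDs over the 10 libraries of DMSO, SR9243 and T3 larvae, on a colour scale from 0 to 1. All cells are positive; ENSAOCG00000000028 with ENSAOCG00000000029 and ENSAOCG00000000033 with ENSAOCG00000000034 are among the highest in each group.

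Averaged over the treatments, the mean r of a listed ID with the other listed IDs was between 0.797 and 0.875. On this average the mean r of a neighbouring ID with the 7 listed IDs was lower, from 0.278 for ENSAOCG00000000017 to 0.625 for ENSAOCG00000000023. ENSAOCG00000000022 had values of 0.788 among DMSO libraries, -0.119 among SR9243 libraries and 0.766 among T3 libraries, the widest range of these 6. In DMSO and SR9243 larvae each neighbouring ID was below each listed ID. In T3 larvae ENSAOCG00000000022 and ENSAOCG00000000023 (0.755) were above the listed ENSAOCG00000000007 (0.705) and ENSAOCG00000000034 (0.738). Among all other tested genes the patterns closest to the listed IDs by this mean r, over 10 libraries in each of the 3 treatments, were ENSAOCG00000017084 (0.744) and ENSAOCG00000002302 (0.677). These values are descriptions and carry no test. ENSAOCG00000017084 had means of 7.22, 7.27 and 7.51 in DMSO, SR9243 and T3 larvae and was higher in T3 than in DMSO by 0.29 ± 0.10 (SE; limma adjusted p = 0.0135), the direction opposite to the called listed IDs. ENSAOCG00000002302 had means of 9.85, 9.82 and 9.7 and differed by -0.15 ± 0.06 between T3 and DMSO (SE; limma adjusted p = 0.0426).

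DMSO library 7 stood apart for the listed IDs. It was the lowest DMSO library for 7 of 7 and the lowest of all 30 libraries for 6 of 7, and lay between -0.88 (ENSAOCG00000000026) and -0.37 (ENSAOCG00000000028) from the mean of the other 9 DMSO libraries. It was the lowest DMSO library for 2 of the 6 neighbouring IDs, ENSAOCG00000000022 and ENSAOCG00000000023, and its deviations for the 6 ran from -0.44 to 0.01. The same library had the fewest genes at the lowest value, 558; the part of this in its low values was not tested. Its median over all IDs of the table, 6.803, was the lowest of the 30 together with that of DMSO library 9. The mean over the listed IDs was 13.44 in library 9 against 12.57 in library 7.

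**Figure D5:**
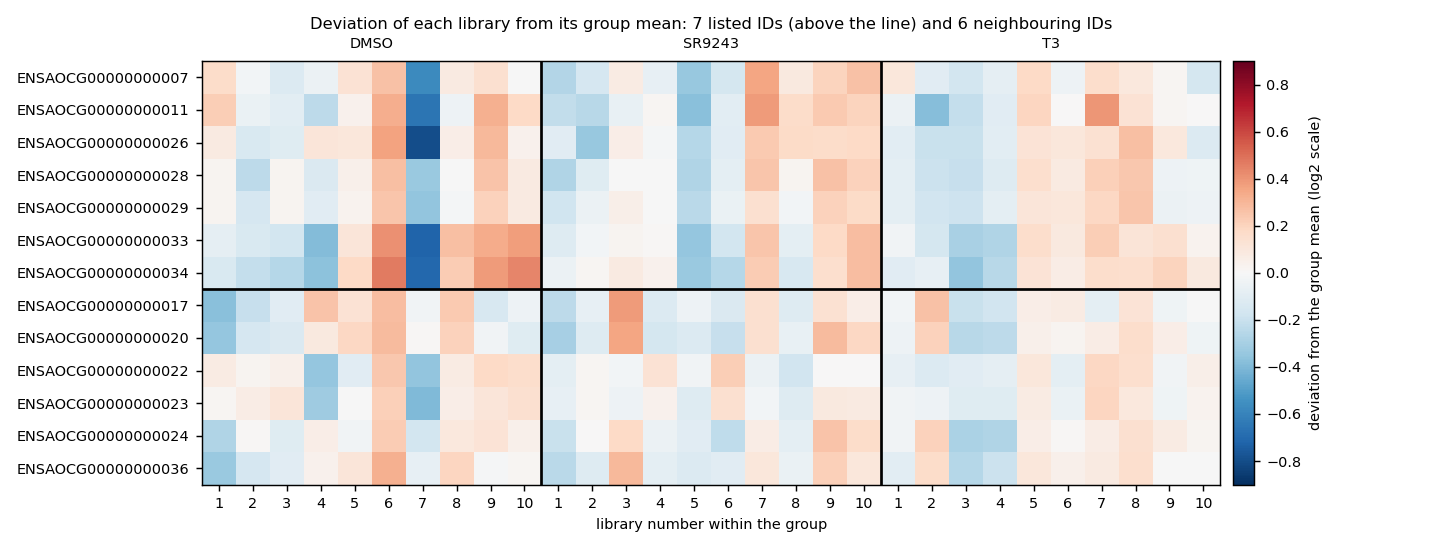
Colours give the deviation of each library (columns, numbered within DMSO, SR9243 and T3) from its group mean on the log2 scale for the 7 listed IDs, above the line, and the 6 neighbouring IDs. DMSO library 7 is the deepest column for the listed IDs. The group mean behind the colours includes library 7 itself. From the mean of the other DMSO libraries, which is not shown, it lay between -0.37 and -0.88.

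The spread within groups differed between the listed IDs. In DMSO the SD was 0.37 for ENSAOCG00000000033 and 0.396 for ENSAOCG00000000034, above the median SD of 0.287 over all tested genes. For ENSAOCG00000000029 it was 0.173, below that median. Without DMSO library 7 these 3 SDs were 0.287, 0.326 and 0.129, and the median over all tested genes was not computed without it. Over tested genes in the top tercile of mean level the median in DMSO, with all libraries, was 0.259. In T3 larvae ENSAOCG00000000007 had the lowest SD of the 7, 0.129, where the median over all tested genes was 0.216. Over tested genes in the top tercile of mean level it was 0.157.

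Between libraries 6 to 10 and libraries 1 to 5 of a treatment no listed ID was called by limma; what the numbers stand for is not labelled, and this split was taken up because it divided other genes of the treated groups. Within DMSO the call rate of all tested genes was 0.0752% and 0 of 7 listed IDs were called, within SR9243 larvae 3.82% and 0 of 7, and within T3 larvae 3.15% and 0 of 7. The differences ran from -0.04 to 0.32 in DMSO, from 0.10 to 0.36 in SR9243 and from 0.03 to 0.27 in T3 larvae. At an unadjusted p below 0.05 there were 0, 3 and 0 of 7, against 7.3%, 15.9% and 11.4% of tested genes; the 3, all higher in SR9243 libraries 6 to 10, were ENSAOCG00000000007 by 0.30, ENSAOCG00000000011 by 0.36 and ENSAOCG00000000028 by 0.26. In the limma test of whether a treatment difference differed between these sets of libraries, 0 of 7 were called, against 0.102% of tested genes for T3 against DMSO, 2.94% for SR9243 against DMSO and 5.7% for SR9243 against T3, and 0 of 7 at an unadjusted p below 0.05 in each, against 5.6%, 14.9% and 16.1%. With libraries 6 to 10 alone, DMSO library 7 among them, 0 of 7 were called in each comparison. The shares of tested genes called were 31.8% between T3 and DMSO, 11.5% between SR9243 and DMSO and 15.5% between SR9243 and T3. With libraries 1 to 5 alone 2 of 7 were called between T3 and DMSO, against 40.8% of tested genes, and 4 of 7 between SR9243 and T3, against 34.3%. Between SR9243 and DMSO 3 of 7 were called, against 24%: ENSAOCG00000000026 at -0.31, ENSAOCG00000000033 at 0.33 and ENSAOCG00000000034 at 0.34 (limma adjusted p = 0.0208, 0.034 and 0.0344).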

How the data were processed

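Per the labels' protocols the libraries are stranded and made from poly(A) RNA, with paired reads of 150 bases. Poly(A) selection takes mitochondrial transcripts only so far as they carry short tails of their own. Whether the transcripts of all listed IDs carry them was not tested. The submitters' processing notes list FastQC 0.11.8 and kallisto 0.46.1. The values deposited by the authors are normalised counts after a variance-stabilising step, on a log2-like scale, for 22816 Ensembl IDs; the annotation, the genome build and the stabilising tool were not given in the sources used here, and the depth is unknown. All 30 value columns were matched to samples by name, reading SR as SR9243 and TH as T3.

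A gene was tested if it exceeded the table's lowest value in 10 or more of 30 libraries (22615 kept, 201 removed). Tests used limma 3.58.1 in R 4.3.3, with a mean-variance trend, treatment as the only term, all libraries in 1 fit and Benjamini-Hochberg adjustment at 0.05; the fit was tested on simulated data. Correlations used 100000 permutations in NumPy 2.4.6, with the ranks for Spearman's rho from SciPy 1.17.1. The genes named are the 7 listed IDs, the 6 other IDs in the same order and the 2 others with the highest mean r to the 7. Members, neighbouring IDs and tests were chosen with earlier results of these data known. Gene lists by symbol (nuclear complex I subunits, cell type markers) could not be applied, as no ID was paired with a symbol. No 2 columns were identical (highest r within a group 0.987). Library numbers 1 to 10 recur in each group and were not taken as pairs.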

Additional observations from a re-analysis of the deposited data

Results flagged for a closer look

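In DMSO library 7 the value of ENSAOCG00000000007 was 13.14, where the other 9 DMSO libraries lay at 13.59 or above, and the value of ENSAOCG00000000026 was 11.61, where the other 9 lay at 12.27 or above. Both stand out because the gap to the nearest library takes up more of the group's range than Dixon's critical value allows for 10 samples. Of 21 groups examined (7 IDs in 3 treatments) 2 were past that value, and chance passes about 1 in 20. Both come from the same library and cannot be taken as separate events, so the count cannot be set against that rate. Across DMSO libraries the 2 IDs had a Pearson's r of 0.951, to which library 7 itself contributes. Without the 2 libraries farthest from the median of ENSAOCG00000000007, library 7 among them, r was 0.672.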

How the results depend on the processing

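Counts of listed calls between T3 and DMSO, SR9243 and DMSO, and SR9243 and T3 (2, 0 and 4) were 1 to 2, 0 to 1 and 4 to 5 with each library left out in turn, and the relative counts (2, 2 and 1) 2, 1 to 2 and 1 to 2. On the deposited scale 11046 to 11635, 5852 to 7240 and 6908 to 8868 of the 22615 tested genes were then called. For the relative counts in alternative settings the share of all tested genes was not computed. The replicate block by library number changed no listed call (2, 0 and 4 on the deposited scale, and 2, 2 and 1 on the relative scale). With that block 11131 of all tested genes were called between T3 and DMSO and 6197 between SR9243 and DMSO. Of 30 same-numbered pairs 7 correlated above 0.1, with r from -0.278 to 0.183. Pairs with different numbers were not compared, so these values cannot tell whether the numbers mark a shared origin. With only the 2 groups fitted 1 listed ID was called between T3 and DMSO, as were 10939 of the 22615 tested genes. With libraries 6 to 10 alone 0 listed IDs were called in each comparison, and 7186, 2602 and 3514 of all genes were called. This fit holds 5 libraries a group, DMSO library 7 among them. Between SR9243 and DMSO 1 was called with library weights, 1 with a term for the library set, 3 with libraries 1 to 5 and 1 without DMSO libraries 4 and 7. In these settings, in the same order, 7964, 6608, 5434 and 7514 of all tested genes were called. Between SR9243 and T3 1 was called under quantile normalisation, as were 7540 of all tested genes. With library medians set equal 5 listed IDs and 7905 of all tested genes were called. With the medians of the top tercile of mean level set equal these counts were 5 and 8064. Relative counts between SR9243 and DMSO were 0 against the neighbouring IDs and 1 without DMSO libraries 4 and 7, and between SR9243 and T3 2 without these. Correlated pairs fell to 6 in DMSO and 13 in T3 without the 2 farthest libraries.

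Outside quantile normalisation, reversed signs concerned only differences that had not passed the test. The largest of these was 0.12, for ENSAOCG00000000011 between SR9243 and DMSO. T3 minus DMSO under quantile normalisation was 0.15 for ENSAOCG00000000007, 0.21 for ENSAOCG00000000029 and 0.22 for ENSAOCG00000000033, and -0.0116 for ENSAOCG00000000011 without DMSO libraries 4 and 7. SR9243 minus T3 under it was -0.13 for ENSAOCG00000000007, -0.28 for ENSAOCG00000000011 and -0.18 for ENSAOCG00000000029; for ENSAOCG00000000011 it was -0.0315 with weights, -0.0444 with libraries 1 to 5 and -0.02004 to 0.0666 with 1 library left out. SR9243 minus DMSO for ENSAOCG00000000007 was -0.00166 with equal library medians, -0.0683 with weights, -0.14 with libraries 1 to 5, -0.0507 without DMSO libraries 4 and 7 and -0.036 to 0.0653 with 1 left out. For ENSAOCG00000000029 it was -0.0123 with weights, -0.00407 with libraries 1 to 5 and -0.00763 without DMSO libraries 4 and 7, and for ENSAOCG00000000011 -0.0306 with libraries 1 to 5.

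On the relative scale against the median of the other listed IDs, T3 minus DMSO was -0.0177 for ENSAOCG00000000028, 0.11 for ENSAOCG00000000029 and -0.0522 for ENSAOCG00000000034; SR9243 minus DMSO was 0.000453 for ENSAOCG00000000007, -0.0287 for ENSAOCG00000000028 and 0.0894 for ENSAOCG00000000029; SR9243 minus T3 was -0.0209 for ENSAOCG00000000029. Against the neighbouring IDs ENSAOCG00000000029 was 0.028 for T3 minus DMSO and -0.0446 for SR9243 minus T3. Without DMSO libraries 4 and 7 ENSAOCG00000000034 was -0.0192 for T3 minus DMSO. With 1 library left out ENSAOCG00000000028 ran from -0.00602 to 0.0402 for SR9243 minus DMSO and ENSAOCG00000000029 from -0.0091 to 0.0197 for SR9243 minus T3. The cause of these changes was not tested. The comparison of library sets fitted to 1 treatment at a time (also 0 listed calls), the relative values with 1 library left out and the quantile-normalised pair were chosen as alternatives after the data were seen. The depth is unknown, so what it limits cannot be given.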
